A study of Mus musculus with 4 samples.

Results

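The circadian clock genes described here are Npas2, Clock, Arntl, Per1, Per2, Per3, Cry1, Cry2, Nr1d1 and Dbp, taken by gene symbol. All 10 were found among the 32285 genes of the count matrices. The list was chosen by measured values of these data. Npas2 was selected on its RNA being lower in the knockout in most excitatory subclasses in an earlier pass over these libraries. The others were taken as its paralog, partner and targets. The genotype values of Npas2 in excitatory neurons are therefore a description, with no test. The RNA came from nuclei of mouse cortex, with 2 wildtype animals and 2 Setdb1-CK-cKO animals. All were 5-month-old mice listed as C57BL/6, and each animal gave a single 10x 3′ library. The targeted gene, Setdb1, codes for a histone H3 lysine 9 methyltransferase, and the labels name a conditional knockout without explaining CK or giving the cells in which the gene was deleted. No other treatment is named. The time of day at which tissue was taken is not given in the sources used here.

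In the molecular clock, CLOCK or its paralog NPAS2 pairs with ARNTL (BMAL1) and switches on genes through E-box sequences. Among those genes are the Per and Cry repressors, which then shut the pair down, so that the loop runs through about a day. NR1D1 (REV-ERB alpha) represses Arntl through RORE sequences, and DBP acts on D-box sequences of clock targets. NPAS2 is the form best known from the forebrain. Because the RORE genes and the E-box and D-box genes peak at opposed times of day, a shift of phase moves these arms of the clock against each other.

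The libraries held from 38314394 to 45605971 UMIs (unique molecular identifiers, each standing for 1 captured RNA molecule). After filtering, 11176 to 13882 nuclei per library remained, 52038 in all. Between 48 and 64 barcodes were shared by any pair of libraries. Marker genes gave names to 24 of the 33 clusters, which held 27059 excitatory neurons, 4606 inhibitory neurons, 3588 astrocytes, 6501 oligodendrocytes, 1443 oligodendrocyte precursors and 2314 microglia. A cluster of 2190 Meis2 inhibitory neurons, seldom described in cortex, was kept apart. It held 527, 284, 934 and 445 nuclei by library. The sex-linked RNA of both knockout libraries was opposite to their listed sex. Uty, on the Y chromosome, was at 87.7 CPM in wildtype replicate 1 and 76.0 in knockout replicate 1, while Xist was at 1032 and 1423 CPM in the second replicates. Replicate number and sex-linked RNA therefore cannot be told apart here. Setdb1 RNA itself did not pass the test in excitatory neurons (log2 fold change -0.02 ± 0.085 SE, edgeR quasi-likelihood adjusted p = 0.903), and 3′ counts do not show whether an exon was removed. Ribosomal protein genes took 0.357%, 0.420%, 0.511% and 0.578% of excitatory UMIs in wildtype replicates 1 and 2 and knockout replicates 1 and 2. That share was higher in the knockout, and its part in the results was not tested.

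Npas2 RNA in excitatory neurons was close to one level in the wildtype libraries and at about 49.6% of it in the knockout. Npas2 (ENSMUSG00000026077) lies on chr1:39193731-39363236 of GRCm38, plus strand, and is 169506 bp long. Levels are CPM, the UMIs of the gene scaled to a common total of UMIs in the class with TMM factors, and values by library are given in the order wildtype replicates 1 and 2, knockout replicates 1 and 2. In excitatory neurons the level was 223, 208, 114 and 99.6 CPM, from 6537, 5921, 2935 and 2529 UMIs. Both knockout libraries were below both wildtype libraries, and the gap between genotypes was far wider than the gap within either. The log2 fold change was -1.01 ± 0.089 (SE, 2 animals per genotype), with a 95% interval from -1.21 to -0.80. Over all genes tested in this class, 26.7% had both knockout libraries below both wildtype ones, and 1.34% were called lower at an edgeR adjusted p under 0.05. Gm3617 overlaps Npas2 on the same strand and Gm20428 on the other. UMIs of such overlapping genes may be shared, since the use of strand in counting is not given in the sources used here.

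**Figure D1:**
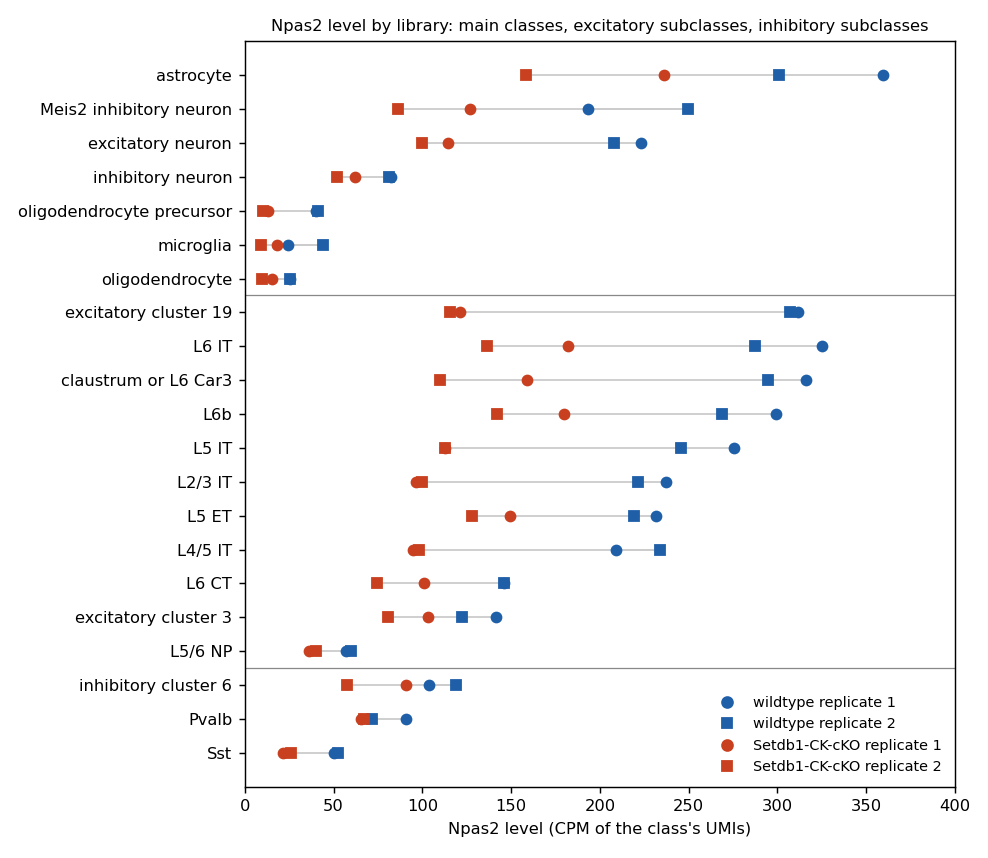
Npas2 level by library (x axis, CPM of the class's UMIs) in main classes, excitatory subclasses and inhibitory subclasses (rows, each block ordered by wildtype mean). Blue marks are wildtype, red marks knockout, circles replicate 1 and squares replicate 2. In each of the 21 rows both knockout libraries lie to the left of both wildtype libraries, by a wide gap in excitatory cluster 19 (312 and 307 against 121 and 115 CPM) and by a narrow one in Pvalb neurons (90.8 and 71.6 against 65.3 and 66.9 CPM).

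The lower level was found through the cortical layers. In all 11 excitatory subclasses both knockout libraries were below both wildtype libraries, with log2 fold changes from -1.35 to -0.51 and a median of -0.90. Upper-layer L2/3 IT neurons, which project within the telencephalon, had 237, 221.7, 96.3 and 99.5 CPM (-1.205 ± 0.097). L4/5 IT neurons had 209, 234, 94.7 and 98.1 CPM (-1.19 ± 0.117), and L5 IT neurons had 275, 245, 113 and 113 CPM (-1.204 ± 0.098). These 3 subclasses held 42.7%, 43.5% and 43.3% of their wildtype level, and their knockout replicates lay close together.

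Among deep-layer neurons, and in clusters 19 and 3, which were given no layer name, the values varied. Differences between subclasses were not tested. L5 ET neurons, which project out of the telencephalon, had 232, 219, 149.5 and 128 CPM (-0.67 ± 0.118). L6 CT neurons, which project to the thalamus, had 146, 146, 100.7 and 74.3 CPM (-0.72 ± 0.123). L6 IT neurons lay between these with 325, 288, 182 and 137 CPM (-0.90 ± 0.140), and L6b neurons had 299.5, 269, 180 and 142 CPM (-0.80 ± 0.157). The claustrum or L6 Car3 neurons had 316, 295, 159 and 110 CPM (-1.15 ± 0.184). The change was widest in cluster 19, led by Tshz2, at 312, 307, 121 and 115 CPM (-1.35 ± 0.148), and narrowest in cluster 3, led by Ndst4, at 141, 122, 103 and 80.8 CPM (-0.51 ± 0.141). L5/6 NP neurons had the fewest Npas2 UMIs of these subclasses, 33 in wildtype replicate 1 and 16 in knockout replicate 2, and an interval of the log2 fold change from -1.26 to 0.03.

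In wildtype animals the order of Npas2 levels ran from astrocytes (330 CPM, mean of 2 animals), cluster 19 (309), L6 IT (306), claustrum or L6 Car3 (305) and L6b (284) through L5 IT (260). The ranges of the wildtype pairs overlapped from each of these to the next. L2/3 IT (229.5), L5 ET (225), L4/5 IT (221.5) and the Meis2 neurons (221.5) followed, each overlapping its neighbour, and L6 CT neurons (146) stood below them. Excitatory cluster 3 (132) came next. Inhibitory clusters were lower still, at 111 CPM in cluster 6 (led by Adarb2), 81.2 in Pvalb and 51.2 in Sst neurons. L5/6 NP neurons, at 58.4 CPM, were the one excitatory subclass below Pvalb neurons. Oligodendrocyte precursors (40.7), microglia (34.2) and oligodendrocytes (25.3) came last. The order leaves out 4 small classes that were not tested for Npas2, with 0 to 18 UMIs in each library: committed oligodendrocyte precursors, endothelial cells, mural cells and fibroblasts.

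Inhibitory neurons had less Npas2 RNA in the knockout by a smaller margin. The level was 82.4, 81.4, 61.9 and 51.9 CPM (log2 fold change -0.52 ± 0.121), and the groups did not overlap. The edgeR adjusted p was 0.0528, just over the threshold of 0.05, so that this difference did not pass. It passed with doublets kept (-0.63, edgeR adjusted p = 0.0126). It did not pass by DESeq2 (DESeq2 adjusted p = 0.304) or limma-voom (limma-voom adjusted p = 0.0547). Without 1 library at a time the log2 fold change ran from -0.65 to -0.41. Of the inhibitory subclasses, Sst neurons passed, with 50.01, 52.3, 21.6 and 26.2 CPM (-1.09 ± 0.238, edgeR adjusted p = 0.0312). Cluster 6 had 104, 119, 90.8 and 57.5 CPM (-0.58 ± 0.174, edgeR adjusted p = 0.110). Pvalb neurons had -0.27 ± 0.164 (edgeR adjusted p = 0.618). The fold change in excitatory neurons was lower than that in inhibitory neurons by 0.45 ± 0.10 (SE, genotype by class term). It is given with no test, since the excitatory value chose the gene.

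Astrocytes, where the wildtype Npas2 level was as high as in deep-layer neurons, had 359, 301, 236 and 158 CPM (-0.72 ± 0.205, edgeR adjusted p = 0.287). Both knockout libraries were below the wildtype ones, but they differed from each other by more than the nearest libraries of the genotypes did. Without 1 library at a time the log2 fold change ran from -1.02 to -0.48, and with doublets kept it was -0.87 (edgeR adjusted p = 0.00238). The astrocytes came from a cluster with 1029, 988, 471 and 484 nuclei and from a second, led by Gm48619 and Def8, with 20, 36, 197 and 363, so its make-up differed between genotypes. Meis2 inhibitory neurons had 194, 249, 127 and 86.3 CPM (-1.05 ± 0.261, edgeR adjusted p = 0.863), in a class where no gene was called. Without 1 library at a time the log2 fold change there ran from -1.34 to -0.81.

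In the other glia the Npas2 counts were small. Oligodendrocytes had 25.4, 25.2, 15.5 and 9.92 CPM from 50, 49, 23 and 12 UMIs (-0.94 ± 0.292, edgeR adjusted p = 0.126). Their precursors had 40.0, 41.4, 12.8 and 9.97 CPM from 25, 26, 7 and 6 UMIs (-1.83 ± 0.381, edgeR adjusted p = 0.220). Microglia had 24.1, 44.2, 18.3 and 9.24 CPM from 12, 22, 9 and 5 UMIs (-1.30 ± 0.472, edgeR adjusted p = 0.290). None of these passed, although no knockout library reached a wildtype one. Precursors passed with doublets kept (-1.499, edgeR adjusted p = 0.00467). Without 1 library at a time the values ran from -1.32 to -0.69 in oligodendrocytes, -2.01 to -1.66 in precursors and -1.85 to -0.79 in microglia.

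RNA of excitatory neurons was found in these classes too. The 6 excitatory markers, Slc17a7 and Neurod6 among them, summed to 927, 944, 854 and 896 CPM in excitatory neurons and to 622, 703, 481 and 612 CPM in oligodendrocytes, and none was at 0. In microglia they summed to 701, 753, 552 and 638 CPM, in precursors to 446, 507, 384 and 445 CPM, in astrocytes to 458, 597, 358 and 523 CPM and in inhibitory neurons to 241, 306, 230 and 271 CPM. Npas2 in oligodendrocytes was at 11.4%, 12.1%, 13.5% and 9.96% of its excitatory level, below the lowest of the 6 markers in each library (22.3%, 26.4%, 14.6% and 21.1%). In microglia it was at 10.8%, 21.3%, 16.0% and 9.27%, below the lowest marker in 3 libraries and above it (12.9%) in knockout replicate 1. The median marker share was higher, at 93.8% to 132% in oligodendrocytes and 80.6% to 162% in microglia. Whether these low Npas2 levels are RNA carried over from excitatory neurons was not tested, and they are not taken as expression. In precursors the Npas2 share was 17.9%, 19.9%, 11.2% and 10.0%. It was just above the lowest marker in the wildtype libraries (16.5% and 18.9%) and below it in the knockout ones (11.6% and 24.2%). In astrocytes Npas2 was at 161%, 145%, 206% and 159% of its excitatory level, above the highest marker in each library (95.6%, 117%, 110% and 103%). In other classes single markers reached 194% (oligodendrocytes) and 221% (microglia) of their excitatory level in wildtype replicate 1. The part of carried-over RNA in the astrocyte level of Npas2 was not tested. In inhibitory neurons its share, 36.9% to 54.1%, lay within the range of the markers in 3 libraries and above the highest (48.7%) in knockout replicate 2, and the part of excitatory RNA in that result was not tested.

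Neither Clock nor Arntl passed the test in any class. Clock (chr5:76209868-76304792, minus strand), which encodes the paralog that takes the same place in the dimer, had 112, 112, 115 and 111 CPM in excitatory neurons. Its log2 fold change was 0.01 ± 0.074 (edgeR adjusted p = 0.947), with a 95% interval from -0.16 to 0.18. Arntl (chr7:113207465-113314126, plus strand), which encodes the shared partner, had 86.1, 84.8, 85.5 and 71.9 CPM (-0.11 ± 0.095, edgeR adjusted p = 0.545). Only knockout replicate 2 was lower, and the groups overlapped. Clock and Arntl are, like Npas2, long genes of 94925 and 106662 bp. Ube2n-ps1 and Gm43658 overlap Clock on the same strand and Gm45355 overlaps Arntl on the other, so UMIs may be shared. In astrocytes Arntl had 98.2, 85.4, 56.4 and 68.1 CPM, with no overlap (-0.52 ± 0.193, edgeR adjusted p = 0.430). Its fold change was negative in 7 of 7 main classes, with a median of -0.24, and in 4 of them both knockout libraries were below both wildtype ones. The lowest edgeR adjusted p among these was 0.381, in oligodendrocytes (35.6, 32.4, 24.2 and 24.8 CPM). In the excitatory subclasses the groups overlapped in 11 of 11. The share of all genes with both knockout libraries below both wildtype ones was not counted in classes other than excitatory neurons.

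**Figure D2:**
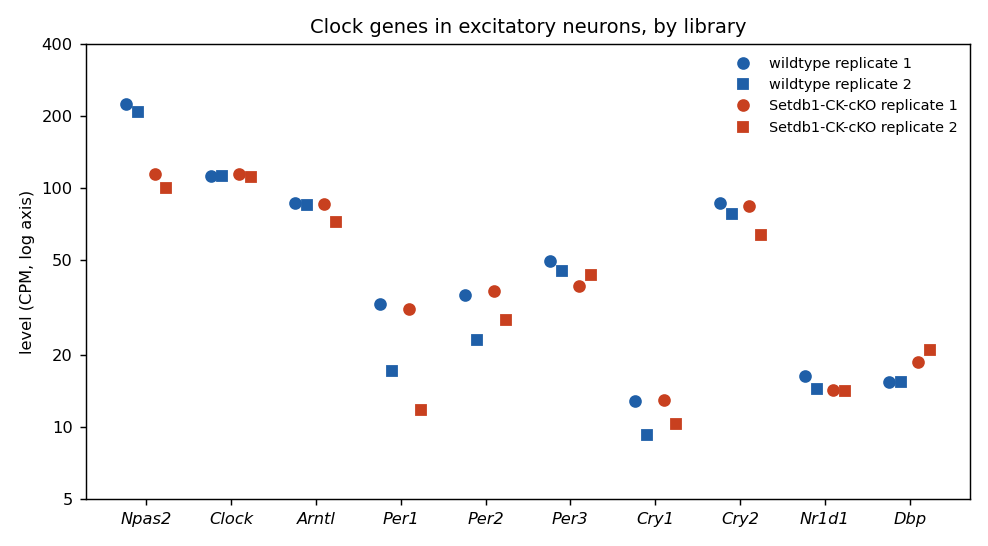
Level of each clock gene (x axis) in excitatory neurons by library (y axis, CPM, log axis). Blue marks are wildtype, red marks knockout, circles replicate 1 and squares replicate 2. Npas2 separates by genotype (223 and 208 against 114 and 99.6 CPM), Per1 by replicate number (32.7 and 31.1 against 17.1 and 11.8 CPM).

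The Per genes encode part of the inhibitory complex of the clock, and Per1 and Per2 varied between animals of one genotype more than between genotypes. Per1 (chr11:69095217-69109960, plus strand) had 32.7, 17.1, 31.1 and 11.8 CPM in excitatory neurons (-0.21 ± 0.405, edgeR adjusted p = 0.809). Per2 (chr1:91415982-91459324, minus strand) had 35.7, 23.0, 37.0 and 28.0 CPM (0.16 ± 0.203, edgeR adjusted p = 0.714). Both were high in replicate 1 and low in replicate 2 of each genotype. On the log2(CPM + 1) scale replicate 1 was above replicate 2 by 0.89 in wildtype and 1.33 in knockout animals for Per1, and by 0.61 and 0.39 for Per2.

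The same order was seen in most excitatory subclasses. Per1 was higher in wildtype replicate 1 than in replicate 2 in 10 of 11 excitatory subclasses, and higher in knockout replicate 1 in 11 of 11. For Per2 the counts were 11 and 10. Cry2 gave 9 and 11, and Cry1 9 and 9. In the 7 main classes wildtype replicate 1 was above replicate 2 in 5 for Per1, 6 for Per2, 3 for Cry1 and 3 for Cry2. Knockout replicate 1 was above replicate 2 in 7 for Per1, 5 for Per2, 6 for Cry1 and 7 for Cry2. For Per1, Cry1 and Cry2 the order was thus less regular in wildtype than in knockout animals. In excitatory neurons 7 of the 10 clock genes were higher in replicate 1 of both genotypes, against 30.9% of all genes tested. Subclasses come from the same animals, and whether sex, time of dissection or handling moved these genes cannot be told apart.

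Per3 (chr4:151003652-151044665, minus strand), the third member of the family, had 49.7, 45.0, 38.9 and 43.3 CPM in excitatory neurons, with both knockout libraries lower (-0.20 ± 0.105, edgeR adjusted p = 0.326). Its gene overlaps Camta1 on the same strand, so its UMIs are uncertain. In inhibitory neurons Per3 had 17.2, 14.3, 14.6 and 22.9 CPM and the groups overlapped. Per1 there had 20.4, 15.5, 16.3 and 8.40 CPM (-0.54 ± 0.269, edgeR adjusted p = 0.416), and Per2 had 20.9, 15.7, 20.4 and 14.5 CPM. In astrocytes, where Per1 was at 62.3, 45.0, 59.2 and 31.7 CPM, replicate 1 was again the higher of each pair.

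The Cry genes, whose proteins repress the CLOCK or NPAS2 dimer most directly, did not pass the test in any class. Cry1 (chr10:85131700-85185064, minus strand) had 12.8, 9.28, 13.02 and 10.2 CPM in excitatory neurons (0.08 ± 0.181, edgeR adjusted p = 0.837). Cry2 (chr2:92403646-92434043, minus strand) had 86.8, 78.1, 84.0 and 63.5 CPM (-0.15 ± 0.126, edgeR adjusted p = 0.528), low in knockout replicate 2 alone. In microglia Cry2 had 50.2, 86.5, 44.7 and 37.0 CPM (-0.73 ± 0.316, edgeR adjusted p = 0.378), with no overlap between genotypes. That value ran from -1.08 without wildtype replicate 1 to -0.28 without wildtype replicate 2. Over the 7 main classes Cry2 was negative in 6, with a median of -0.15. In inhibitory neurons it had 75.8, 66.7, 61.3 and 59.0 CPM (-0.24 ± 0.12, edgeR adjusted p = 0.426). D930015M05Rik overlaps Cry2 on the other strand.

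Nr1d1 (chr11:98767932-98775333, minus strand), the repressor of the RORE loop, had 16.4, 14.4, 14.3 and 14.1 CPM in excitatory neurons (-0.11 ± 0.12, edgeR adjusted p = 0.641). Both knockout libraries were below the wildtype ones, the nearest by less than the wildtype pair differed. Thra overlaps Nr1d1 on the other strand.

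Dbp (chr7:45705088-45710203, plus strand), the D-box activator and a direct output of the loop, was the one member that lay higher in the knockout in several classes. In excitatory neurons it had 15.3, 15.4, 18.7 and 21.1 CPM, with no overlap. The log2 fold change was 0.38 ± 0.115 with an interval from 0.11 to 0.64, and the edgeR adjusted p of 0.109 did not pass. Among all genes tested there, 26.0% had both knockout libraries above both wildtype ones. Without 1 library at a time the log2 fold change of Dbp ran from 0.28 to 0.46.

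The other classes gave larger values of Dbp with wider errors. Inhibitory neurons had 10.5, 11.7, 16.6 and 21.4 CPM (0.78 ± 0.218, edgeR adjusted p = 0.116). Astrocytes had 27.0, 34.5, 51.8 and 51.5 CPM (0.78 ± 0.222, edgeR adjusted p = 0.285), and microglia had 28.1, 30.2, 52.8 and 44.3 CPM (0.74 ± 0.326, edgeR adjusted p = 0.388). In all 3 the knockout libraries were above the wildtype ones. Pvalb neurons had the highest fold of any class tested, 8.96, 6.67, 17.7 and 26.6 CPM (1.53 ± 0.351, edgeR adjusted p = 0.0578), which did not pass. The groups overlapped in oligodendrocytes, their precursors and Meis2 neurons.

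Across layers Dbp had both knockout libraries above both wildtype ones in 10 of 11 excitatory subclasses. It passed the filter on low counts in 9 of these, with log2 fold changes from 0.15 to 0.61, and the lowest edgeR adjusted p was 0.214. The subclasses share animals and are not separate evidence, and the share of all genes without overlap was not counted in them. In inhibitory neurons the log2 fold change of Dbp ran from 0.57 to 0.95 without 1 library at a time. Sphk2 overlaps Dbp on the other strand, so part of its UMIs may belong to that gene.

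**Figure D3:**
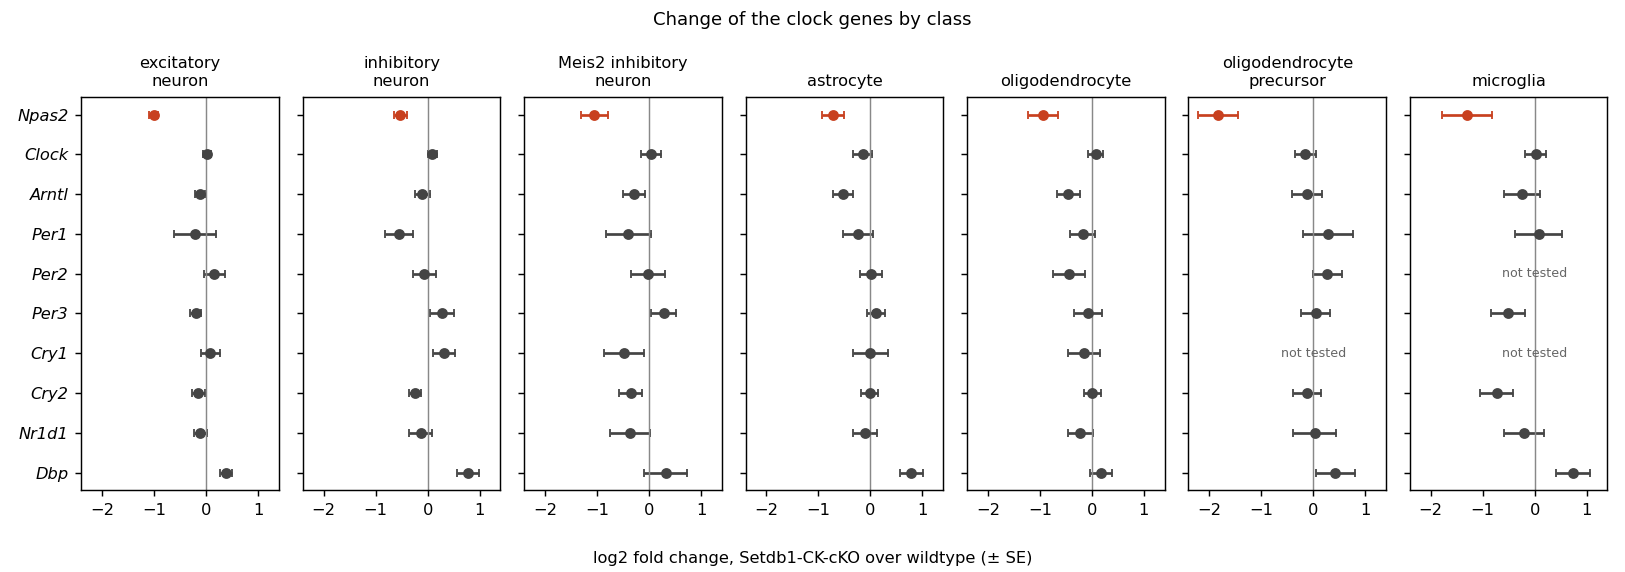
Log2 fold change of each clock gene, knockout over wildtype (x axis), in 7 main classes (panels). Points are edgeR estimates and bars ± SE, with Npas2 in red. Npas2 lies left of 0 in each panel, from -1.83 to -0.52, as does Arntl, from -0.52 to -0.10, and Dbp lies right of 0, from 0.17 to 0.78, while each of the others has values on both sides.

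Counted over the members, none of the 9 clock genes other than Npas2 passed the edgeR test in excitatory neurons, where 4.38% of all genes were called. At an unadjusted edgeR p under 0.05 there was 1 of 9, beside 3990 of all 19124 genes tested. DESeq2 and limma-voom also called 0. Without knockout replicate 1, which leaves 1 knockout library, the log2 fold changes were -1.08 for Per1, -0.37 for Cry2 and 0.46 for Dbp. Counts of such runs are given below with the count over all genes. The median log2 fold change of the 9 was -0.11, beside 0.00 for all genes. In this class 3 of the 10 had both knockout libraries below both wildtype ones (Npas2, Per3 and Nr1d1) and 1 had them above (Dbp). Of all genes tested there, 26.7% had them below and 26.0% above, so these counts are near the background. Npas2 was chosen for its lower level.

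Across the other classes the 9 genes gave no call by edgeR, DESeq2 or limma-voom. Of all genes, edgeR called 0.0% in Meis2 neurons, 0.0217% in precursors, 0.111% in microglia, 0.304% in astrocytes, 1.02% in oligodendrocytes and 1.17% in inhibitory neurons. Over the 7 classes edgeR ran 60 tests of these genes, and 6 had an unadjusted p under 0.05. Among all genes such p were found for 1897 of 14449 in inhibitory neurons, 1146 of 12183 in astrocytes and 1718 of 12299 in oligodendrocytes. They were found for 661 of 9211 in precursors, 1049 of 9013 in microglia and 497 of 11549 in Meis2 neurons. Cry1 did not pass the low-count filter in precursors, nor Cry1 and Per2 in microglia. A share of 0 called members is thus close to the background in each class. The SE of a fold change reached 0.486 (Per1), and a missed threshold does not show equal levels.

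In the excitatory subclasses edgeR ran 93 tests of the 9 genes and called 0, with 5 at an unadjusted p under 0.05. Among all genes such p ran from 801 of 7700 in L5/6 NP to 2439 of 14266 in L5 IT neurons. DESeq2 and limma-voom also called 0. The share of all genes called was 1.61% in L2/3 IT, 2.37% in L4/5 IT, 1.61% in L5 ET, 3.63% in L5 IT, 1.12% in L5/6 NP, 3.74% in L6 CT, 3.35% in L6 IT and 1.2% in L6b neurons. It was 1.43% in claustrum or L6 Car3 neurons, 1.07% in cluster 19 and 0.763% in cluster 3. The inhibitory subclasses gave 27 tests and 0 calls by the 3 tools, with 2 at an unadjusted edgeR p under 0.05. Among all genes such p were found for 1154 of 11483 in Pvalb neurons, 1161 of 10638 in Sst neurons and 1125 of 11376 in cluster 6. There 0.383% of genes were called in Pvalb neurons, 0.902% in Sst neurons and 0.756% in cluster 6.

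The genotype effects of these 9 genes were also compared between excitatory neurons and each other class. None of the 9 had a difference past the threshold by edgeR in any of 5 comparisons, and the lowest adjusted p was 0.493. At an unadjusted p under 0.05 there was 1 of 9 against microglia, oligodendrocytes, astrocytes and inhibitory neurons, and 0 against precursors. The share of all genes at that unadjusted threshold was not counted. Among all genes 0.637% were called against inhibitory neurons, 0.12% against astrocytes, 0.92% against oligodendrocytes, 0.172% against precursors and 0.16% against microglia. The value for Npas2 was -0.25 ± 0.19 against astrocytes, -0.01 ± 0.32 against oligodendrocytes, 0.33 ± 0.45 against microglia and 0.84 ± 0.42 against precursors.

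**Figure D4:**
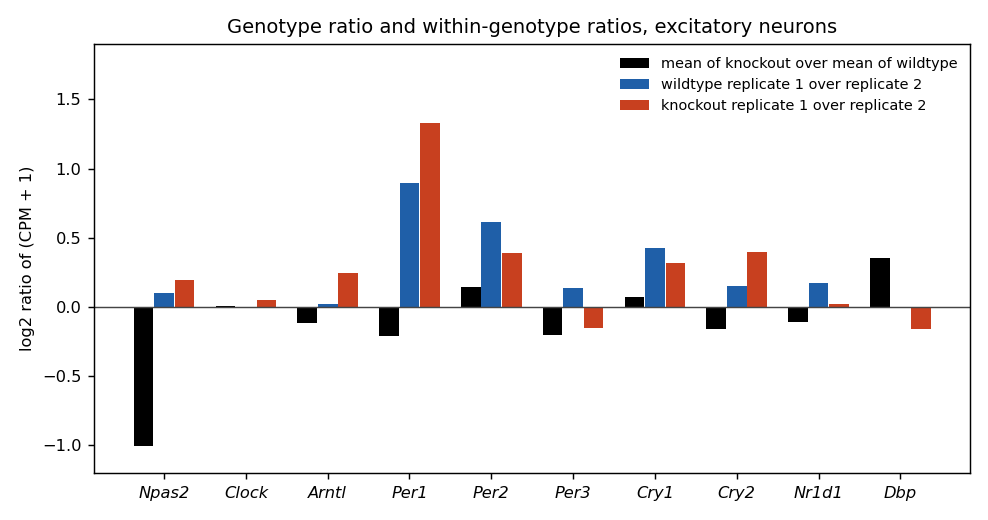
Log2 ratios of (CPM + 1) in excitatory neurons for each clock gene: mean of knockout over mean of wildtype (black), and replicate 1 over replicate 2 within wildtype (blue) and within knockout (red). For Npas2 the genotype ratio exceeds both replicate ratios (0.10 and 0.20), and for Per1 both replicate ratios (0.89 and 1.33) exceed the genotype ratio.

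To set the change of Npas2 beside the phase of the clock, its arms were summarised by library. The arm driven through RORE sequences held Arntl, Clock, Cry1 and Nfil3, and the arm driven through E-box and D-box sequences held Dbp, Per1, Per2, Per3, Nr1d1, Nr1d2, Tef, Ciart and Bhlhe41. The measure is the mean log2(CPM + 1) of the first arm minus that of the second, and Npas2 is given apart. In excitatory neurons it was 0.18, 0.32, 0.25 and 0.27, so both knockout values lay between the wildtype ones. The knockout mean was above the wildtype mean by 0.0037, while Npas2 on the same scale was 7.81, 7.71, 6.85 and 6.65. Each arm moved little on its own, by -0.017 for the RORE genes and -0.021 for the others. The second mean joins members of both signs, Dbp at 0.38 and Per1 at -0.21 among them. Over the 7 main classes Arntl was negative in 7 and Dbp positive in 7, with 0 calls. The remaining members other than Npas2 had both signs there. The wildtype animals differed from each other by 0.14, more than the genotypes did.

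In the other classes the measure moved without one direction. Inhibitory neurons had 0.48, 0.56, 0.76 and 0.65, with both knockout values higher. For astrocytes it was -0.76, -0.48, -1.24 and -0.67, in oligodendrocytes -0.22, -0.13, -0.35 and -0.24, and in microglia -0.31, -0.53, -0.57 and -0.66, with knockout values lower in the oligodendrocytes and microglia and overlapping in astrocytes. Meis2 neurons had 0.47, 0.46, 0.46 and 0.16, and precursors -0.60, -0.39, -0.48 and -0.43. Npas2 was lower in both knockout libraries in all 7. Its low level in oligodendrocytes and microglia is not taken as expression and bears on no comparison with the arms. With 2 animals per genotype an exact permutation test of a single value could not reach 0.05, so no p is given. The signs in precursors and microglia changed when genes under 5 CPM were left out (to -0.20 and 0.028).

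**Figure D5:**
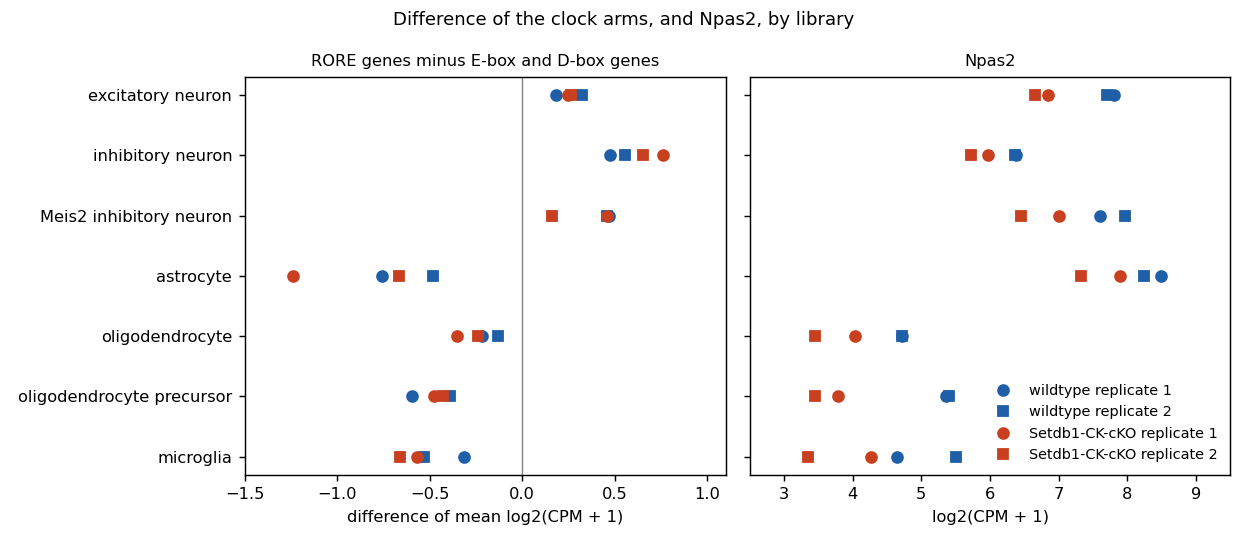
Left, difference of the mean log2(CPM + 1) of 4 RORE genes and of 9 E-box and D-box genes by library in 7 classes. Right, Npas2 as log2(CPM + 1). Blue marks are wildtype, red marks knockout, circles replicate 1 and squares replicate 2. In excitatory neurons the 4 libraries lie between 0.18 and 0.32 on the left, while Npas2 separates by genotype on the right (7.81 and 7.71 against 6.85 and 6.65).

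The promoters of the members were searched for the sequences by which the arms are named. RefSeq (GRCm38.p6) gave the 250 bases before the start of 9 of the members, all but Per2. Both strands were searched for the E-box CACGTG, the E′-box CACGTT, the D-box TTATGNAA, the ROREs TAGGTCA and TGGGTCA and the cAMP response element TGACGTCA. Matches shown here, with 25 bases on each side (fewer after the Nr1d1 match), lie outside annotated exons, and capitals mark the match (read on the gene's strand, so that an E′-box on the other strand reads as its reverse complement).
Per1 E-box, chr11:69098758-69098813, plus strand: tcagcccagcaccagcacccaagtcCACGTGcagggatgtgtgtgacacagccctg
Cry1 E-box, chr10:85185084-85185139, minus strand: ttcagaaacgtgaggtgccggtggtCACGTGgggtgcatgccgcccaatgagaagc
Cry2 E′-box, chr2:92434205-92434260, minus strand: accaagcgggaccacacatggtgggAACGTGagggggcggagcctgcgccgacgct
Nr1d1 E′-box, chr11:98775378-98775430, minus strand: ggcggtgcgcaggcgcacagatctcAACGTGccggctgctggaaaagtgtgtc
Per3 first D-box, chr4:151044838-151044895, minus strand: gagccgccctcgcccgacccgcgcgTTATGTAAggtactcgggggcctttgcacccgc
Per3 second D-box, chr4:151044791-151044848, minus strand: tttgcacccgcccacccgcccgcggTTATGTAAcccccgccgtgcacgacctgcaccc

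The matches lie 166 bases before the start in Per1, 60 in Cry1, 166 in Cry2, 28 in Nr1d1, and 205 and 158 in Per3. An E′-box 79 bases before the start of Cry1 lies unmarked within the sequence shown for that gene, and a D-box 24 bases before the start of Per1 overlaps an exon and is not shown. Of all 32851 promoter windows of this length, 6.02% hold an E-box, 3.85% an E′-box, 3.07% a D-box, 2.23% and 3.24% the 2 ROREs and 1.55% the cAMP response element. No member's window held a RORE, so the letters of the RORE arm were not found in its members Arntl, Clock and Cry1. Cry1, placed in that arm, held an E-box and an E′-box, and Dbp, placed in the other, held no match. The windows of Npas2, Clock, Arntl and Dbp held none of these letters, which says nothing of elements elsewhere. The members with a match, Per1, Per3, Cry1, Cry2 and Nr1d1, had fold changes on both sides of 0 in excitatory neurons, from -0.21 (Per1) to 0.08 (Cry1).

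None of the other genes of the clock passed the test in excitatory neurons. Of the list of 19 further clock genes 18 were tested and 0 passed, with a median log2 fold change of -0.12 beside 0.00 for all genes. In this list 16 of 18 had negative values. Among those with the smallest p were Rora, Usp2 and Arntl2. Rora, an activator at RORE sequences, had 1440, 1432, 1251 and 1215 CPM (-0.21 ± 0.054, edgeR adjusted p = 0.0655). Usp2, a deubiquitinase with a daily rhythm, had 68.9, 73.1, 55.0 and 58.0 CPM (-0.32 ± 0.086, edgeR adjusted p = 0.0752). Arntl2, the paralog of Arntl, had 33.2, 33.0, 27.1 and 24.6 CPM (-0.35 ± 0.104, edgeR adjusted p = 0.102). In these 3 genes the knockout libraries were below the wildtype ones. Rora fell in inhibitory neurons, from 1347 and 1396 to 1076 and 1132 CPM (-0.31 ± 0.063, edgeR adjusted p = 0.0270).

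The count for this list was 1 by DESeq2 and 2 by limma-voom. Some runs without 1 library also called members of it, as given below with the count over all genes. In the main test Nr1d2, the paralog of Nr1d1, had -0.05 and Ciart, a repressor under E-box control, -0.03, both picked after their values were seen.

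Other bHLH-PAS genes, the protein family of NPAS2 and CLOCK, gave 0 calls among 13 tested in excitatory neurons, with a median of -0.06. At an unadjusted p under 0.05 were Npas4 and Arnt. Npas4, induced by neuronal activity, had 24.2, 21.0, 14.97 and 8.04 CPM (-0.97 ± 0.237, edgeR adjusted p = 0.0585). Arnt, a general partner of the family, had 68.8, 65.9, 60.7 and 55.0 CPM (-0.21 ± 0.089, edgeR adjusted p = 0.220). Npas3 had 103, 121, 132 and 126 CPM (0.21 ± 0.093, edgeR adjusted p = 0.240), and Hif3a 5.54, 5.41, 4.76 and 2.80 CPM (-0.53 ± 0.233, edgeR adjusted p = 0.241). Each run without 1 library called members of this list, as given below with the count over all genes.

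Of 16 genes induced by neuronal activity that were tested in excitatory neurons 3 fell, where 1.34% of all genes were called lower: Nptx2, a secreted pentraxin of synapses, from 11.9 and 12.3 to 6.00 and 5.55 CPM (-1.06 ± 0.131, edgeR adjusted p = 0.00311), and the transcription factors Fosb (-1.43 ± 0.304, edgeR adjusted p = 0.0368) and Egr3 (-0.87 ± 0.197, edgeR adjusted p = 0.0451). All 16 had negative values, with a median of -0.85 beside 0.00 for all genes. Per1 is itself a gene that activity can induce. Its replicate order was shared by Arc, at 26.9, 13.6, 13.1 and 3.27 CPM, and Nr4a1, at 75.1, 51.9, 71.1 and 31.8 CPM, but not by Egr1, at 38.2, 41.5, 29.3 and 15.2 CPM. Arc and Nr4a1 were picked here after their values were seen, and the part of activity in the results on Per1 and Npas2 was not tested. The count of 3 fell to 1 with no filter on low counts. It was higher in each run without 1 library, where the count over all genes also differed, as given below.

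Lists of signals that can reset clocks gave 0 calls in excitatory neurons. Among 12 glucocorticoid-induced genes the median was -0.07, and the smallest p belonged to Tsc22d3, at 7.35, 6.82, 4.52 and 4.81 CPM (-0.60 ± 0.148, edgeR adjusted p = 0.0608). Mt1, a metallothionein, had 55.2, 62.2, 66.0 and 83.7 CPM (0.36 ± 0.123, edgeR adjusted p = 0.145), Ddit4 had 0.52 ± 0.188 and the glucocorticoid receptor gene Nr3c1 -0.26 ± 0.117. Some runs without 1 library called members of this list, as given below with the count over all genes. Among 9 genes set by body temperature the median was 0.02. Cirbp, an RNA-binding protein raised by cold, had 24.4, 27.2, 31.5 and 32.5 CPM (0.32 ± 0.107, edgeR adjusted p = 0.140), and Hsph1, a chaperone raised by heat, 44.8, 47.7, 41.4 and 36.6 CPM (-0.24 ± 0.104, edgeR adjusted p = 0.239). Hspa8 had -0.11 ± 0.084 and Hspa1b -0.38 ± 0.393.

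The genes next to Npas2 on chromosome 1 did not share its change. After its end, Rpl31 (4605 bp away) had 27.3, 34.8, 36.5 and 44.9 CPM in excitatory neurons (0.40 ± 0.147, edgeR adjusted p = 0.172). Tbc1d8 (8255 bp) had -0.13 ± 0.122 and Cnot11 (171755 bp) 0.0048 ± 0.136. Before its start, Pdcl3 (196492 bp) had 0.12 ± 0.168, Chst10 (295569 bp) -0.24 ± 0.107 and Lonrf2 (357019 bp) -0.08 ± 0.094. None of these 6, the nearest genes tested on each side, passed the edgeR test. An unadjusted p under 0.05 was found for 1 of them, beside 3990 of all 19124 genes tested.

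The genes whose wildtype level was most like that of Npas2 over 25 classes and subclasses were Kalrn (r = 0.86), Galnt18 (0.82), Actr3b (0.81), Gm15336 (0.81) and Mkln1os (0.80), among 15358 genes. These Pearson correlations of mean log2(CPM + 1) are descriptions, since the classes share libraries and the subclasses lie within classes. Of the clock genes Arntl came nearest (r = 0.67), followed by Cry2 (0.38) and Per3 (0.34), and Clock had -0.21. Arntl was highest in L4/5 IT neurons (109 CPM) and low in Sst neurons (33.4 CPM), while Clock ranged only from 84.1 to 133 CPM over the 25.

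The genes whose fold changes over the 11 excitatory subclasses lay nearest to those of Npas2, among 6957 tested in all of them, were Egr1, Inf2, Igsf9b, Pdzd2 and Nxpe4. Their mean absolute differences from Npas2 were 0.28, 0.32, 0.34, 0.35 and 0.36 on the log2 scale. Egr1 ranged from -1.01 to -0.37 over the subclasses, and Inf2, an actin-regulating formin, from -1.75 to -0.20. In excitatory neurons as a whole Pdzd2 had 273, 277, 159 and 154 CPM and Igsf9b 187, 179, 116 and 113 CPM. None of the other clock genes was among these 5.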

How the data were processed

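The authors deposited unnormalized UMI counts for each gene and barcode. The submitters' processing notes name Cell Ranger 7.1.0 and mm10. Whether introns were counted, strand was used or free RNA was removed is not given in the sources used here. A nucleus needed 500 UMIs or more, 300 genes or more and no more than 5% mitochondrial UMIs, and 2464 doublets marked by Scrublet at an expected rate of 10% were removed. Clusters came from scanpy 1.11.5 (2000 variable genes, 30 components, 15 neighbours, Leiden resolution 1.0). They were named from marker lists with thresholds chosen after clusters were seen, and 9 of 33 were left unnamed. Doublet and naming choices may differ from the authors'.

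Counts were summed per library and class where each library had at least 30 nuclei, so the animal is the replicate. Genes passing filterByExpr (minimum count 10) were TMM-scaled. The main test was the quasi-likelihood test of edgeR 4.0.16 in R 4.3.3, with genotype as its single term, and Benjamini-Hochberg adjustment over all genes of the class and a threshold of 0.05. The genotype by class term was fitted with a library term. DESeq2 1.42.0 and limma-voom 3.58.1 were alternatives, beside other scaling, no filter, a replicate block, each library left out, doublets kept, at least 1000 UMIs, no clustering, a pseudocount of 0.5 CPM, and the arms without genes under 5 CPM. The tests were checked on simulated data. The arms use a pseudocount of 1 CPM.

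The members and lists were chosen with earlier results of these data known. Named genes are the 10 members, list members past the threshold in excitatory neurons or otherwise up to 4 with the smallest p (1 gene that the rule names is not reported here), and the 5 nearest to Npas2 in wildtype level (at least 10 CPM somewhere) and the 5 nearest in fold change. Positions are from GENCODE vM21 (GRCm38), where 99.6% of the gene identifiers were found. Promoters are from RefSeq (GRCm38.p6).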

Additional observations from a re-analysis of the deposited data

Results flagged for a closer look

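Per3 is listed here because every knockout library moved one way in excitatory neurons and the opposite way in Meis2 inhibitory neurons. Its level was 49.7, 45.0, 38.9 and 43.3 CPM in excitatory neurons (wildtype replicates 1 and 2, knockout replicates 1 and 2), a log2 fold change of -0.20 ± 0.105. In Meis2 neurons it was 33.5, 37.1, 43.3 and 42.1 CPM (0.28 ± 0.237). Neither passed the edgeR test (adjusted p = 0.326 and 0.980), and the difference between the classes was not tested. Knockout replicate 1 gave 934 of the Meis2 nuclei and wildtype replicate 2 gave 284.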

How the results depend on the processing

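Npas2 in excitatory neurons ranged from -1.11 to -0.92 over 12 alternatives. Of 108 alternative values of the other 9 clock genes there, 96 kept direction and side of the threshold, 4 passed it and 8 changed sign, all 8 with a library left out. Without 1 library at a time the log2 fold changes ran from -0.014 to 0.028 for Clock, -1.08 to 0.33 for Per1, -0.13 to 0.50 for Per2, -0.13 to 0.33 for Cry1 and -0.37 to 0.024 for Cry2. In inhibitory neurons they ran from -0.23 to 0.020 for Arntl, -0.32 to 0.16 for Per2 and -0.10 to 0.55 for Per3. In astrocytes they ran from -0.72 to 0.14 for Per1, -0.18 to 0.25 for Per2, -0.28 to 0.32 for Cry1, -0.12 to 0.071 for Cry2 and -0.28 to 0.051 for Nr1d1. For Dbp they ran from -0.30 to 0.96 in Meis2 neurons and -0.039 to 0.80 in precursors. The Npas2 difference, excitatory minus other, ran from -0.21 to 0.76 for microglia and -0.19 to 0.24 for oligodendrocytes. In astrocytes Per2 was -0.013 with no filter and Cry1 0.040 by limma-voom.

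Called members other than Npas2 numbered 0 to 3 in excitatory and 0 to 2 in inhibitory neurons without 1 library at a time, where 686 to 2841 of all excitatory genes were called (837 in the main test, 235 with no filter). The same runs called 0 to 4 further clock genes, 1 to 2 bHLH-PAS genes, 6 to 16 activity-induced genes and 0 to 4 glucocorticoid-induced genes. Further clock genes called were 1 by DESeq2, 2 by limma-voom and 1 with doublets kept, bHLH-PAS genes 1 by limma-voom, and activity-induced genes 1 with no filter. Without genes under 5 CPM the arm measure, knockout minus wildtype, was -0.41 in Meis2 neurons, -0.20 in precursors and 0.028 in microglia. With no filter Npas2 passed in astrocytes (-0.75) and Meis2 neurons (-1.04). The cause was not tested.

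No source says that equal replicate numbers mark a pair, though they also divide the libraries by sex-linked RNA. With a replicate block 3408 excitatory genes were called. Dbp passed in excitatory (0.37), inhibitory (0.78) and astrocyte (0.78) fits, so that 1 member other than Npas2 was called in each. Npas2 passed in inhibitory neurons (-0.52), astrocytes (-0.73), precursors (-1.83) and Meis2 neurons (-1.05). The block called 6 further clock genes, 3 bHLH-PAS genes, 15 activity-induced genes, 5 glucocorticoid-induced genes and 1 gene set by temperature. The 25, 26, 7 and 6 Npas2 UMIs of precursors limit what that class can show.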
